A study of Mus musculus with 11 samples.

Results

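In wild type cells P53 was found, in at least 1 list, near 4 of 10 p53 target genes, against 0.905% of all protein-coding genes in list 1. It was found in both lists near 2 of them, against 0.558%, and in list 1 alone near Cdkn1a and Trp53inp1. List 2 shared 80.3% of its summits with list 1, and the pair was treated as 1 library, so a call in both is no replicate check. H3K4me3 was called at 7, 4 and 3 of the 10 genes in wild type, Wdr5 knockout and double knockout cells, with 1 library per genotype. The shares of all protein-coding genes with H3K4me3 were 35.5%, 3.2% and 22.8% in the same order. At Mdm2 the marked side of the start also differed, while at Sesn2 the mark stayed on the same stretch. The 10 genes arrest the cell cycle, respond to stress or feed back on P53. The genes were Cdkn1a, Btg2, Ccng1, Mdm2, Zmat3, Plk2, Phlda3, Trp53inp1, Sesn1 and Sesn2, known targets of P53 that were chosen as a list with earlier results of these data known, out of 21883 protein-coding genes that RefSeq places on GRCm38.p6, which is mm10. A gene counted as near P53 or WDR5 where a peak lay within 5000 bases of its span. It counted as marked where an H3K4me3 peak lay within 1000 bases of either end of its span.

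The 11 peak lists came from CUT&RUN, in which an antibody guides a nuclease to release the DNA around its target, on day 2 embryoid bodies of mouse Rx:GFP knock-in embryonic stem cells. All cells were differentiated in SFEBq medium with 5% KSR, lost doxycycline at day 0 and received 2% matrigel at day 1. The groups were WT, Wdr5 KO and Wdr5 and p53 double KO (DKO). P53 and WDR5 were each profiled in WT and in DKO, with 2 lists per antibody and genotype. H3K4me3 had 1 list per genotype. Whether each line was a single clone, and which parts of Wdr5 and p53 were deleted, is not given in the sources used here.

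P53 is a transcription factor that is stabilised by DNA damage and other stress and then switches on genes that stop division, repair damage or kill the cell. It binds pairs of a decamer motif, often in promoters or first introns. Several of its targets act back on it: Mdm2 encodes the ubiquitin ligase that destroys P53, and Ccng1 encodes cyclin G1, which brings a phosphatase to MDM2. WDR5 is a scaffold of the MLL and SET1 methyltransferases that place H3K4me3, a mark of active promoters.

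The lists rested on 22.3 M to 57.5 M fragments each. Per the headers, list 2 was called on a merged alignment. It shared its summits to the base with list 1 for 80.3% of peaks in WT P53, 77.3% in WT WDR5 and 75.3% in DKO WDR5, so each of these pairs was treated as 1 library. In DKO P53 the share was 10.6%, and whether the lists are separate libraries was not established. No genotype difference below therefore has a replicate check, and none was tested. The cells carried H3K4me3 in WT at 9 of 10 pluripotent epiblast markers, among them Pou5f1, Sox2 and Otx2. In KO 3 of these 10 were marked, and in DKO 10. The counts in WT, KO and DKO were 2, 1 and 0 of 8 anterior neural markers, 1, 0 and 0 of 8 mesoderm and endoderm markers, 4, 0 and 2 of 6 extraembryonic markers, and 2, 0 and 0 of 6 fibroblast markers. The marker counts thus moved with genotype as well. So did the share of all protein-coding genes with H3K4me3, at 35.5% in WT, 3.2% in KO and 22.8% in DKO. The KO library was also the shallowest. The marker counts alone therefore cannot show a change of cell type, and their part in the results below was not tested.

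**Figure D1:**
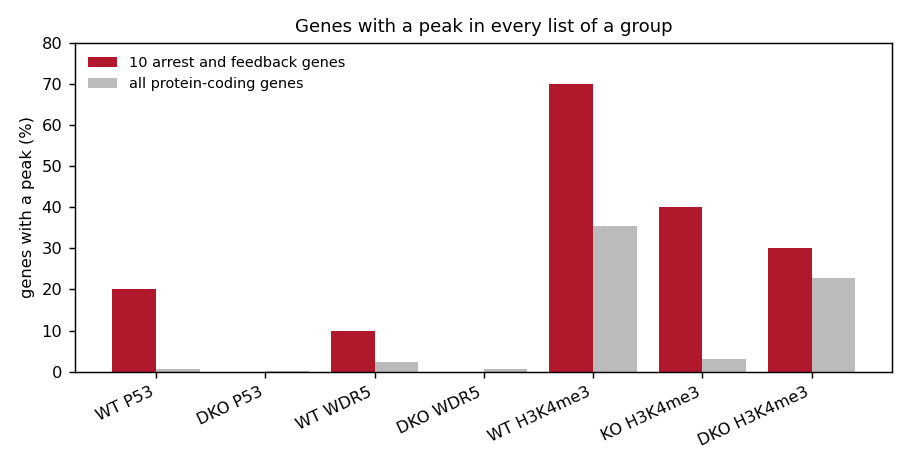
Percentage of genes with a peak in every list of a group (y axis), for the 10 arrest and feedback genes (red) and all protein-coding genes (grey), in the 7 groups of lists (x axis). The share of the 10 genes was 20% in WT P53 and 0% in DKO P53, and it was 70%, 40% and 30% for H3K4me3 in WT, KO and DKO.

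P53 peaks were called in both WT lists at Zmat3 and Plk2, and in WT list 1 alone also at Cdkn1a and Trp53inp1. These were 2 of 10 genes against 0.558% of all protein-coding genes, and 4 of 10 against 0.905% for list 1. In DKO, where cells are labelled as lacking P53, 0 of 10 genes had a peak in either list. Of all genes, 0.192% had a peak in list 1, 0.315% in list 2 and 0.178% in both lists. The nearest DKO P53 peak to any of the 10 genes lay 1101301 bases away, from Plk2. The DKO lists were the deeper ones, with 32.8 M and 57.5 M fragments against 26.4 M and 23.9 M in WT.

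Cdkn1a encodes p21, the inhibitor of cyclin-dependent kinases through which P53 stops the cell cycle. Its P53 peak (chromosome 17, 29090677 to 29090914, mm10) ended 65 bases before the gene span (29090979 to 29100722). In WT list 1 it had a fold enrichment of 4.76 over the local background, a pileup of 25 fragments (95% exact Poisson interval 16.2 to 36.9, counting error only) and rank 286 of 396 by fold enrichment. WT list 2 and both DKO lists had no peak there, so the call rests on list 1.

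That peak covered 186 bases of the 300-base RefSeq window around the gene's first start. The sequence before that start is shown because it holds the peak and a P53 motif side by side. It is the plus strand at chr17:29090729-29090978 (GRCm38.p6), with the bases inside the peak in capitals.
Cdkn1a: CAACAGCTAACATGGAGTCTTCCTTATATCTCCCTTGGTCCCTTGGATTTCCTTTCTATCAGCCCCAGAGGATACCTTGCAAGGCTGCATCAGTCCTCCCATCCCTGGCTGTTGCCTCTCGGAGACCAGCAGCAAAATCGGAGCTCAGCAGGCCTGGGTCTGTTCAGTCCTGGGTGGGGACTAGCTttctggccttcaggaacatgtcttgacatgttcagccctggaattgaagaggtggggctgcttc

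A pair of abutting p53 decamers, with 1 mismatch to the p53 consensus, lay at 29090928 to 29090947, or position -51 counted from the start as 0. It began 14 bases beyond the called edge of the peak and 161 bases from the summit. The scan used the p53 consensus decamer as an abutting pair with its fixed core letters kept. The consensus is its own reverse complement, so a scan of 1 strand covers both. Such a pair with at most 1 mismatch was present in 22 of 32851 RefSeq windows (0.067%), each of 300 bases. Of these 22, the windows of Cdkn1a and Gm51651 overlapped a P53 peak of WT list 1, against 10 of all windows (0.0304%). In WT list 2 the window of Gm51651 alone did, against 5 of all windows (0.0152%), so the overlap of window and peak at Cdkn1a rests on list 1. Gm51651 is named because the count was small, after its values were seen.

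Ccng1 was the other of the 10 genes with such a pair, also with 1 mismatch, at chromosome 11, 40755462 to 40755481, position -195 from its start on the minus strand. No P53 peak was near it: the nearest in WT lay 14092638 bases from the gene in list 1 and 14092655 in list 2. The pairs are set side by side because each has 1 mismatch and they differ in the P53 call. The mismatch is at an outer letter of a decamer at Cdkn1a. At Ccng1 it lies between the fixed C and G of a decamer, so the matches are not equivalent. They are written in capitals within 60 bases of their own strand, at chr17:29090908-29090967 (plus) and chr11:40755442-40755501 (minus).
Cdkn1a pair: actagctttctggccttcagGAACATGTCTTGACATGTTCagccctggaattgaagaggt
Ccng1 pair: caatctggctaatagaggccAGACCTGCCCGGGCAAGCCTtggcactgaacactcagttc

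Of the other genes with a window, the second start of Sesn1 had a pair with 3 mismatches, as did 1.38% of all windows at that limit or better. Mdm2 had a single exact decamer at position -186, a feature of 8.36% of windows. Btg2, Plk2, Phlda3, Sesn2, the first Sesn1 start and the second Cdkn1a start had neither. Zmat3 and Trp53inp1 were not in the window table. A match or its lack says nothing here about P53 itself, since the windows reach 250 bases upstream and the peaks at Plk2 and Zmat3 lay outside them or were not covered.

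Zmat3, an RNA-binding zinc finger gene, had the highest P53 peak of the 10 genes. It lay inside the gene (chromosome 3, 32334792 to 32365665) with its summit on base 32364249 in both WT lists, 1416 bases from the nearer span end. The fold enrichment was 8.95 with a pileup of 48 in list 1 and 8.35 with a pileup of 40 in list 2. It ranked 70 of 396 and 76 of 294 peaks. The peak of list 1 shared 70 bases with a WT H3K4me3 peak, and the summits were 690 bases apart. This was the one overlap of P53 with H3K4me3 among the 10 genes. The P53 peak of list 2 ended at base 32364356, short of that H3K4me3 peak, so the overlap rests on list 1.

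Plk2, which encodes a polo-like kinase of the stress response, had a P53 peak at chromosome 13, 110392459 to 110392960, wholly upstream of the gene (110395044 to 110400844). The summit was at position -2257 from the start in both WT lists. The fold enrichment was 7.79 in list 1 and 7.36 in list 2, with pileups of 31 and 27 and ranks 97 of 396 and 103 of 294. Plk2 carried no H3K4me3 peak in any genotype, and the nearest lay over 1 Mb away in each, at 1101211 bases in WT.

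Trp53inp1, a stress-induced cofactor of P53 that also acts in autophagy, had the weakest of the 4 peaks. It lay at chromosome 4, 11155198 to 11155432, 1009 bases outside the gene (11156441 to 11174379), with a fold enrichment of 4.45, a pileup of 20 (12.2 to 30.9) and rank 324 of 396. In list 2 the nearest P53 peak was 119986 bases away. Cdkn1a and Trp53inp1 thus had the lower values and no second list, and Zmat3 and Plk2 the higher values and both lists.

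The remaining 6 genes had no P53 peak by the rule in any list. Btg2, which encodes an antiproliferative partner of the CCR4-NOT deadenylase, came nearest, with a WT peak 21572 bases away in list 1 (fold enrichment 5.86) and 21579 in list 2 (6.06). The next was Phlda3, at 1232280 bases in list 1. The nearest WT P53 peak of each gene thus lay at most 2113 or at least 21572 bases away, on either side of the limit of 5000 bases. Peaks beyond the nearest were not examined over this range.

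**Figure D2:**
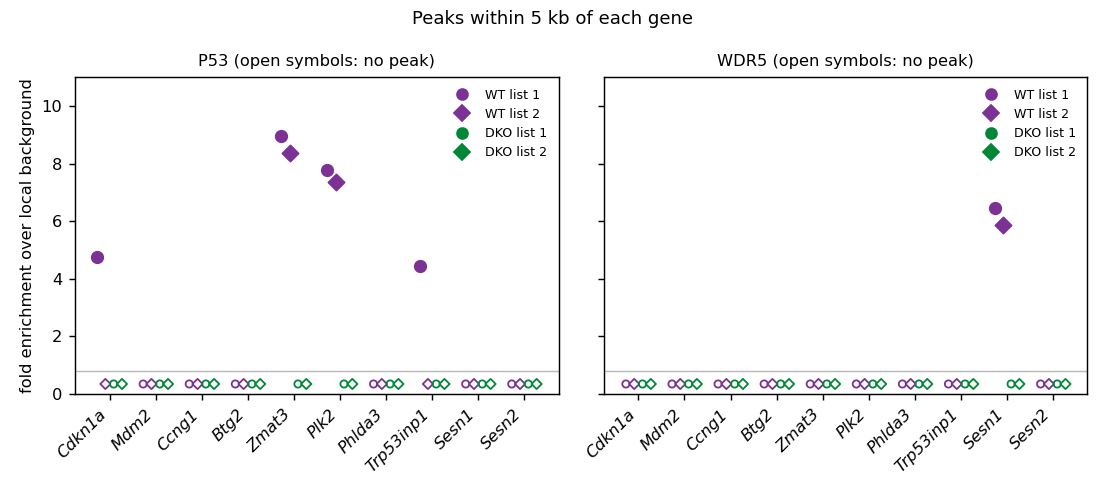
Fold enrichment over the local background (y axis) of the highest P53 (left) or WDR5 (right) peak within 5 kb of each gene (x axis), 1 point per list, with open symbols below the line for no peak. P53 points stand at Cdkn1a, Zmat3, Plk2 and Trp53inp1 in WT, WDR5 points at Sesn1 in WT, and all DKO symbols are open.

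WDR5 was near Sesn1 alone. Sesn1 encodes a sestrin, which restrains the growth kinase mTORC1 under stress. This was 1 of 10 genes against 2.26% of all genes in WT, and 0 of 10 against 0.681% in DKO. The peak lay at chromosome 10, 41809697 to 41809958, with its summit on base 41809828 in both WT lists, position -746 from the first Sesn1 start. The fold enrichment was 6.47 in list 1 and 5.88 in list 2, with pileups of 26 and 21. It spanned the end of the neighbouring gene Cep57l1 (41718840 to 41809868), so it lay on Cep57l1 and 616 bases outside Sesn1. Neither end of Sesn1 carried H3K4me3 in any genotype. The nearest WDR5 peak to any of the other 9 genes in WT was 82478 bases from Cdkn1a. No gene of the 10 had both a P53 and a WDR5 peak. The share of all genes with both was not computed. Each alone was rare in WT, at 0.558% of all genes for P53 and 2.26% for WDR5, so this says little about the 10 genes.

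H3K4me3 was called at 7 of the 10 genes in WT, 4 in the Wdr5 knockout and 3 in DKO. All protein-coding genes were at 35.5%, 3.2% and 22.8% in the same libraries. Among the 7 genes marked in WT, 4 were also called in KO (Mdm2, Ccng1, Phlda3 and Sesn2) against 8.98% of all genes marked in WT. In DKO 3 of the 7 were called (Mdm2, Ccng1 and Sesn2) against 59.7%. The KO library was the shallowest, with 22.3 M fragments and 918 peaks, against 34.2 M and 9836 in WT and 43.2 M and 6418 in DKO. Fold enrichment is relative to each library's own background and was not scaled between libraries.

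**Figure D3:**
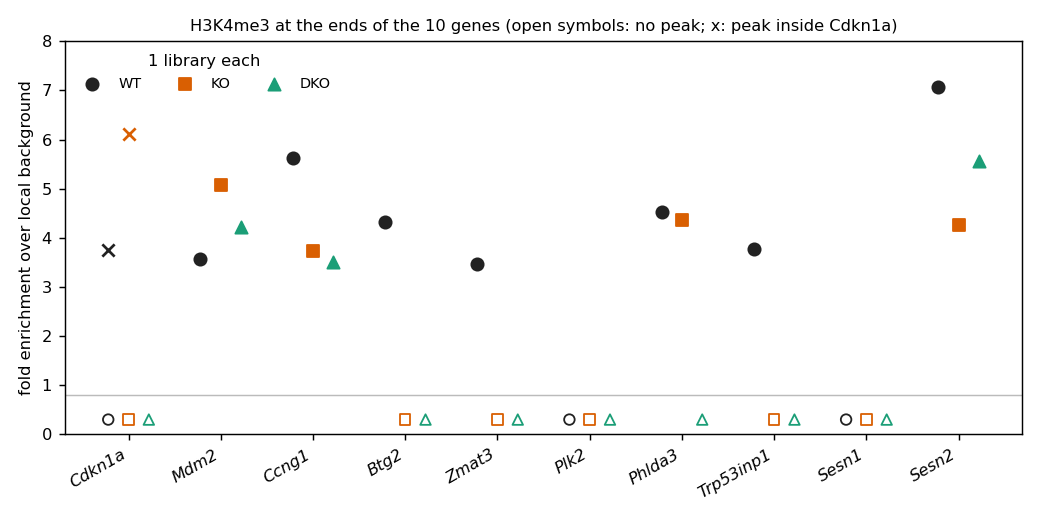
Fold enrichment over the local background (y axis) of the highest H3K4me3 peak at an end of each gene (x axis), with 1 library per genotype; open symbols below the line stand for no peak, and crosses for the peak inside Cdkn1a, more than 1000 bases from its ends. Mdm2, Ccng1 and Sesn2 had a peak in all 3 genotypes, Phlda3 in WT and KO, and Btg2, Zmat3 and Trp53inp1 in WT.

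Sesn2, the second sestrin of the list, had the highest fold enrichment of the 10 genes in WT and in DKO, but not in KO, where Mdm2 (5.08) and Phlda3 (4.36) were above it, as was the inner peak of Cdkn1a (6.11). Its fold enrichment was 7.08 in WT, 4.27 in KO and 5.57 in DKO, with pileups of 75 (59 to 94), 32 (21.9 to 45.2) and 46 (33.7 to 61.4) fragments. The WT peak lay on chromosome 4 from 132509133 to 132510364, and its value was above that of 95.6% of the genes marked in WT. The summits stood at positions 397, 433 and 340 from the start, so the 3 libraries placed the mark on the same stretch just inside the gene. The peak was 1232 bases wide in WT, 930 in KO and 386 in DKO.

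Ccng1 had 5.62 in WT, 3.73 in KO and 3.50 in DKO, with pileups of 37, 17 and 19. The KO peak ranked 837 of 918 and had a -log10 q of 2.96. The summits lay at position 165 in WT, 458 in KO and 461 in DKO. WT was the highest of the 3, and KO and DKO lay close together in both value and place.

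Mdm2 (chromosome 10, 117688875 to 117710758) had an H3K4me3 peak on each side of its start in WT, and only 1 of the 2 sides in each mutant. In WT the peak inside the gene had a fold enrichment of 3.56 with its summit at position 1064, and the peak upstream had 3.37 with its summit at -433. The KO library had the inner peak alone, with 5.08 at position 1377 and a pileup of 33 (22.7 to 46.3). The DKO library had the upstream peak alone, with 4.22 at position -554 and a pileup of 26 (17 to 38.1). The inner KO peak ended 915 bases from the span end, just within the limit of 1000.

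Mdm2 is transcribed from its outer start and from an inner promoter that P53 activates, so the 2 sides were compared with those of other genes. Peaks on both sides of a start were present at 915 genes in WT, of which 107 also had a peak at the start in both KO and DKO. Of these 107, 68 had the inner side alone in KO and 23 the upstream side alone in DKO, and 7, Mdm2 included, had both features. None of the 107 had peaks on both sides in KO (0 of 107), while 46 did in DKO. A single side in KO was thus shared by every gene compared, and the pattern at Mdm2 was present at other genes too. The window table lists no inner start for Mdm2.

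Phlda3, whose product competes with the kinase AKT for membrane lipids, had a fold enrichment of 4.53 in WT and 4.36 in KO and no peak in DKO. The pileups were 28 (18.6 to 40.5) and 25 (16.2 to 36.9), and the peaks shared 794 bases inside the gene on chromosome 1. The nearest DKO peak was 133798 bases away. Of the 701 genes called in KO, 93.9% were also called in DKO, and 3 of these 4 genes were. Phlda3 was the exception.

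Cdkn1a was unmarked by the rule, since its H3K4me3 peaks lay inside the gene, 2825 bases from the span end in WT and 2846 in KO, which puts them outside the limit of 1000. They stood just past the gene's second RefSeq start (29093769), with summits at positions 253 and 476 from it. The fold enrichment was 3.75 in WT, with a pileup of 29 (19.4 to 41.6), and 6.11 in KO, with a pileup of 32 (21.9 to 45.2). The WT peak ranked 7540 of 9836 and the KO peak 133 of 918. DKO had no peak there, and the nearest was 57059 bases away. By RefSeq starts in place of span ends, 5 of the 10 genes were called in KO and 3 of these in DKO, against 93.4% of the 606 genes called in KO by the same rule. Cdkn1a and Phlda3 were the 2 without a DKO peak.

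Cdkn1a thus had P53, in list 1 alone, just before its first start and H3K4me3 just past its second. The P53 summit was at position -3002 from the second start. The windows around these starts also differ in base composition, with 2 CpG pairs in 300 bases at the first start and 23 at the second. The median over all windows was 7.

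Btg2, Zmat3 and Trp53inp1 were marked in WT alone. Btg2 had a fold enrichment of 4.32 and a pileup of 30, with its summit at position 560. Zmat3 had peaks of 3.47 and 3.42 on either side of its span end, with pileups of 19 and 18. The outer of these lay inside the long noncoding RNA gene 4930429B21Rik, which overlaps that end of Zmat3. Trp53inp1 had 3.78 and a pileup of 25, 120 bases inside its span end. Zmat3, Mdm2 and Trp53inp1 were among the lowest of the genes marked in WT, above 6.69%, 8.56% and 14.6% of them. By fold enrichment, low WT values belonged to genes both called (Mdm2) and not called (Zmat3, Trp53inp1) in the mutants. The higher WT peak of Mdm2 had a pileup of 30 and a -log10 q of 6.48. These were 19 and 3.89 at Zmat3 and 25 and 5.93 at Trp53inp1, so Mdm2 was not equally low by these measures. Whether a low WT signal accounts for the missing calls was not tested.

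**Figure D4:**
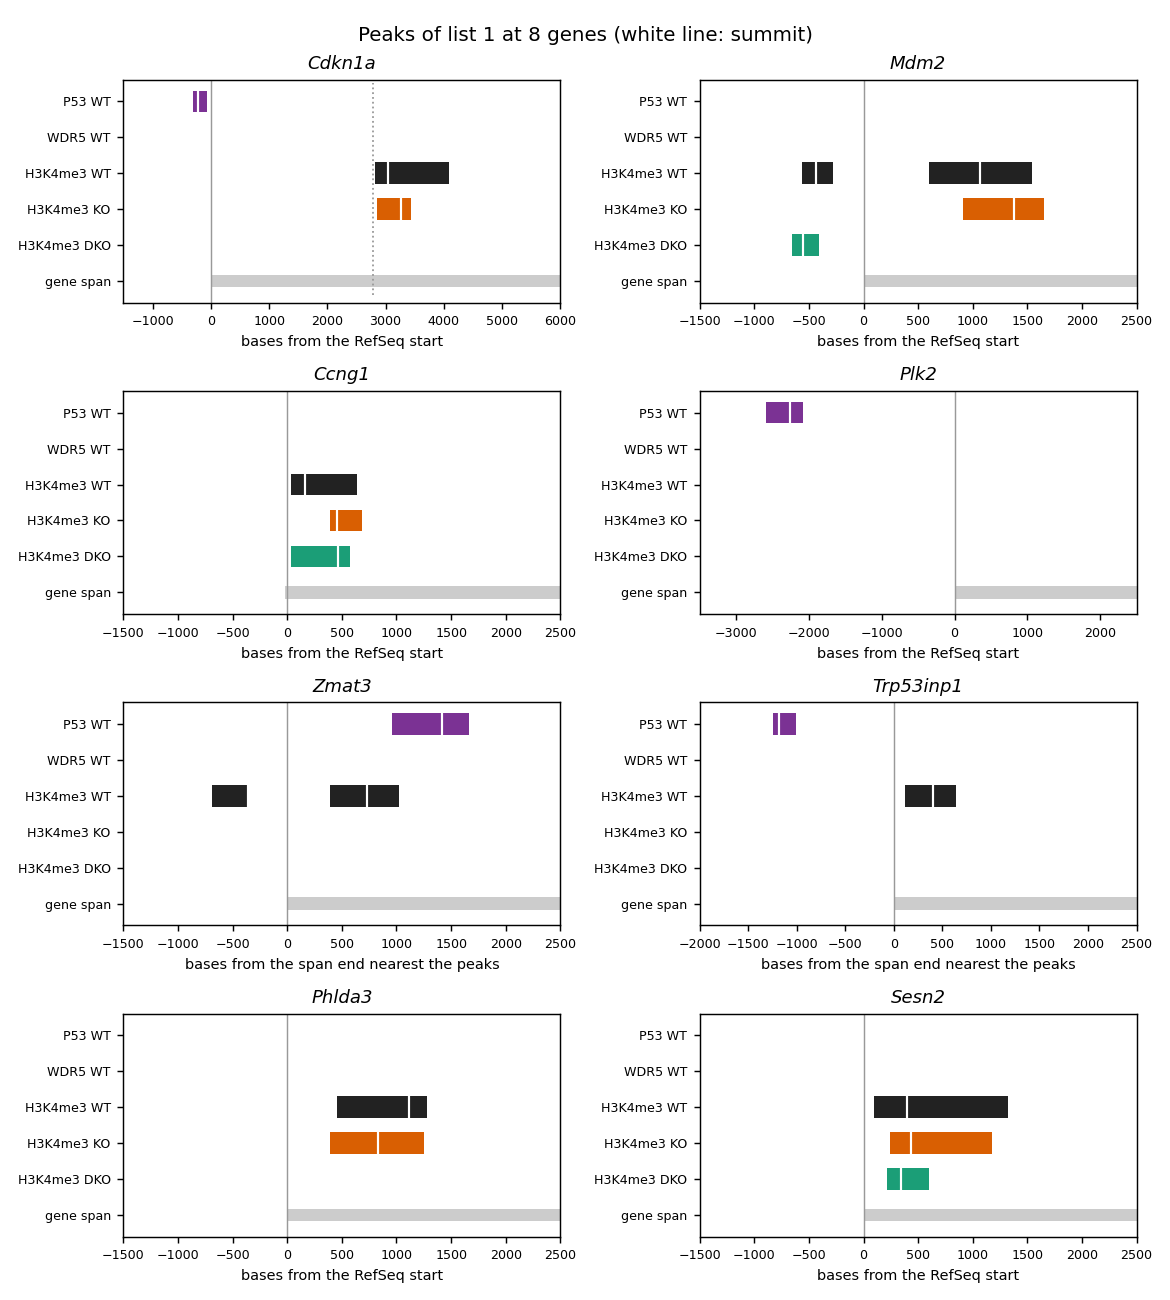
Peaks of list 1 at 8 genes (bars, with a white line at the summit), by antibody and genotype (rows), against the distance in bases from the RefSeq start, or from the span end nearest the peaks for Zmat3 and Trp53inp1; the dotted line in the Cdkn1a panel is its second start. At Mdm2, WT has a bar on each side of the start, KO the inner and DKO the upstream one.

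In all these genes the H3K4me3 peaks stopped short of the span end, by 53 bases at Ccng1 to 596 at the inner Mdm2 peak in WT. A peak that covered the start itself was present at 24.5% of the 6510 genes marked at a RefSeq start in WT, and the highest summit lay downstream of the start in 79.2%. The windows of the 10 genes were rich in CpG: 8 of 10 windows, from 7 genes, lay above the upper quartile of 20 pairs, the exceptions being Ccng1 with 14 and the first Cdkn1a start with 2. The letters GGGCGG, on either strand, were in 8 of the 10 windows against 35.7% of all, and CCAAT in 6 against 37.4%. Plk2 and Sesn1, which had no H3K4me3 peak in any library, had 31 and 24 CpG pairs at their first starts, as many as the marked genes.

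Other genes of the pathway were counted by the same rules. Of all protein-coding genes, 0.558% had P53 and 2.26% had WDR5 in both WT lists. By list 1 the shares were 0.905% and 3.76%. Of 24 further p53 targets in apoptosis, repair and checkpoint control, P53 was called in both WT lists at 2, Bbc3 (12.8 and 11.7), which encodes the death factor PUMA, and Eda2r (4.78 and 4.67). List 1 added Aen (5.28). Bbc3 was above Zmat3, the highest of the 10 genes. H3K4me3 was called at 17 of the 24 in WT, 3 in KO (Apaf1, Polk and Gtse1) and 12 in DKO, and WDR5 at 0. For H3K4me3 all protein-coding genes were at 35.5%, 3.2% and 22.8%. Apaf1, which encodes the apoptosome scaffold, resembled Phlda3 in its calls, with 6.88 in WT, 5.07 in KO and no DKO peak.

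Of 19 paralogs of the 10 genes, Mdm4 alone had P53. Mdm4 encodes the partner of MDM2 that inhibits P53. Its peak lay inside the gene on chromosome 1, from 133020357 to 133020616, 9971 bases from the nearer end, with 4.72 in list 1 and 4.73 in list 2 and no DKO peak. H3K4me3 was called at 12 of the 19 in WT, 0 in KO and 5 in DKO, against 35.5%, 3.2% and 22.8% of all genes.

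Of 28 genes through which the 10 act, such as cyclins, their kinases and the GATOR complexes, P53 was called at 0 and WDR5 in both WT lists at 0. WDR5 list 1 alone had Ccnd3 (4.57), Pcna (4.07) and Rbl1 (4.22). H3K4me3 was called at 15 in WT, 6 in KO and 13 in DKO, against 35.5%, 3.2% and 22.8% of all genes. The 6 were Cdk1 and Ccnb1 (the mitotic kinase and its cyclin), Cdk4, Pcna, and Trp53 and Wrap53, which share an end and a peak. All 6 were called in DKO. Cdk1 had 5.47 in WT, 6.41 in KO and 5.17 in DKO, and Ccnb1 6.09, 6.52 and 5.68.

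Of these lists, 8 genes had H3K4me3 in all 3 genotypes and could be compared with Mdm2, Ccng1 and Sesn2 by the mean absolute difference in fold enrichment over the 3 libraries. Nearest to Ccng1 were Gtse1 (0.29), Polk (0.55) and Trp53 (0.72). Nearest to Sesn2 were Cdk4 (0.63), Pcna (0.89) and Polk (1.1). Nearest to Mdm2 were Trp53 and Wrap53, with the same peak (0.75), and Polk (1.0). These are descriptions over 3 libraries that differ in depth.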

How the data were processed

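CUT&RUN peak lists for P53, WDR5 and H3K4me3 were used. Per the file headers, the authors' caller was MACS, as version 2.1.2 for list 1 of P53 and WDR5 and 2.1.0.20150731 for the others. It read paired ends without a control library, kept up to 2 duplicate fragments, took the local background over 10 kb and cut at q 0.01. The submitters' processing notes also name Bowtie2, SAMtools 1.5, bedtools, HOMER 4.10 and mm10. The deposited pileup is a coverage signal at the summit, not scaled to depth. The deposited fold enrichment is a ratio to the library's own local background. The deposited -log10 p and -log10 q are the authors' values for each peak. With no control library, high background can be called as a peak, and fewer peaks are called in shallow or noisy libraries.

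The 35 peaks outside the autosomes and sex chromosomes were left out. Genes (each ID once) and promoter windows came from RefSeq tables of GRCm38.p6. Strand and starts come from the windows, which 8 of the 10 genes have (10 windows). A group counted where all its lists had a peak. Distances are between nearest edges. Python 3.11.15, pandas 2.3.3 and scipy 1.17.1 were used, and the interval and motif code was tested on simulated data, against bedtools 2.31.1. No test between genotypes was made. All 10 genes are named; a gene of the 3 other lists is named where it had P53 or WDR5 in a WT list or H3K4me3 in KO. The genes and lists were chosen with earlier results of these data known.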

Additional observations from a re-analysis of the deposited data

How the results depend on the processing

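Of 46 alternatives to the 7 counts of genes with a peak, 39 stayed within 1.5 times the count reported. The 39 include the alternatives for DKO P53 and DKO WDR5, where 0 was compared with 0, so the ratio cannot measure their stability. The 7 that moved were all alternatives for WT P53 or H3K4me3. The P53 count in WT was 1 with a window of 1000 bases, which leaves Zmat3, against 0.416% of all genes. With a single list in use it ranged from 2 to 4. It was 4 without list 2, which adds Cdkn1a and Trp53inp1, against 0.905% of all genes. Without list 1 it was 2, against 0.567%. When the H3K4me3 peak had to overlap the span end, the counts were 0 in WT, 0 in KO and 0 in DKO, while 7.65%, 0.32% and 2.83% of all genes remained. When only peaks in the upper 50% by fold enrichment were kept, the H3K4me3 counts were 3 in WT (Ccng1, Phlda3 and Sesn2), 1 in KO (Mdm2) and 2 in DKO (Mdm2 and Sesn2), against 21.7%, 1.45% and 13.5% of all genes. With the whole span and 1000 bases, an alternative chosen after seeing the data, they were 8, 5 and 3, against 40.2%, 3.85% and 26.7% of all genes, as Cdkn1a joined in WT and KO. The DKO P53 and DKO WDR5 counts were 0 and the WT WDR5 count 1 in every alternative run for them. The shares of all genes ran from 0.0914% to 0.315% for DKO P53 and from 0.297% to 1.04% for DKO WDR5. For WT WDR5 they ran from 1.13% to 3.76%. No paired analysis was possible because the counts come from no test. Pileups of 17 to 75 fragments leave wide counting intervals, so a gene with no peak may lie just under the cutoff.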
